A study of Mus musculus with 49 samples.

Results

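Kidneys collected 24 hours after ischemia-reperfusion injury (IRI24h) were compared directly with kidneys collected 4 hours after the same injury (IRI4h), with no sham value taken off. Each group had 3 libraries, together 6 of the 49 libraries of the series, and the comparison covered every gene with at least 1 FPKM (fragments scaled to the length of the gene and the depth of the library) in at least 3 of the 49 libraries. This was 14895 of 43309 genes. All animals were male C57BL/6NCrl mice, 10 to 12 weeks old at surgery. In IRI24h and IRI4h mice both renal pedicles were clamped for 21 minutes under anesthesia and then released, which is a warm ischemia of both kidneys in 1 sex and 1 strain. Sham-operated mice killed at 24 hours (SHAM24h) and at 4 hours (SHAM4h), with 3 libraries each, were taken to have had the same surgery with no clamping and show what surgery and the hours after it do alone. Libraries were made from poly(A) RNA of whole kidneys, so each value averages over all cells of the organ, and fewer cells of a type cannot be told apart from less RNA per cell. The time points came from different mice.

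The first hours after reperfusion are known for immediate early genes, which are transcribed within minutes from factors already present in the cell, and for the heat shock response, in which heat shock factor 1 binds heat shock elements in the promoters of chaperone genes when proteins unfold. Most immediate early mRNAs are short-lived, and several of their products switch the signal off again. By the end of the first day, surviving cells of the proximal tubule, the segment most exposed to ischemia, are known to lose their brush border, to make injury proteins such as kidney injury molecule 1 and to enter the cell cycle, while leukocytes and stromal cells respond around them. The comparison of 24 with 4 hours asks which of these programs had faded and which had begun.

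The scaling of the libraries touches every count below. IRI24h libraries were scaled to 46353551 to 52170537 reads and IRI4h libraries to 38168017 to 42472547 reads, and 12918 to 13083 genes reached 1 FPKM in IRI24h against 12037 to 12224 genes in IRI4h. Libraries within a group correlated at 0.981 to 0.989 in IRI24h and 0.977 to 0.986 in IRI4h (Pearson's r of log2 values over genes, as a description). Kidney markers were high in both groups, with *Umod*, the uromodulin gene of the thick ascending limb, at 912, 933 and 1128 FPKM in IRI24h kidneys, against 1913, 1528 and 1559 FPKM in IRI4h kidneys. Changes are given as the difference of mean log2(FPKM + 0.1) between the groups, IRI24h minus IRI4h, from a limma fit of all 49 libraries, and a gene is called higher or lower at an adjusted p (Benjamini-Hochberg over 14895 genes) under 0.05. On this scale 6395 genes (42.9%) rose and 2042 (13.7%) fell, and the median change of all genes was 0.33. Of the calls 75.8% were higher. When each library was shifted to the same median, 47.2% of the calls were higher, and after quantile normalization 55.6%, so small rises of up to about the size of the median are not distinguished from the scaling. A fold change of at least 4 with a mean above 1 FPKM in either group was reached by 417 higher genes (2.8%) and 285 lower genes (1.91%). The 3 libraries of one group lay entirely above those of the other for 70.1% of genes. With 3 kidneys a side an exact test of a single gene cannot go below p = 0.10, so each call draws on a spread estimated from all 16 groups.

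In sham kidneys over the same interval, 3942 genes (26.5%) were higher and 979 (6.57%) lower in SHAM24h than in SHAM4h, with a median change of 0.18. The change after IRI exceeded the change after sham for 3333 genes (22.4%) and was below it for 2244 (15.1%), by the limma test of the difference of the changes. No library was shared between the IRI and the sham contrast of 24 with 4 hours. A total of 2471 genes were called in the same direction in both of these contrasts, 2184 of them higher and 287 lower. Of the genes called after IRI, 4483 also differed from sham in their change. Against sham of the same time, 4847 genes (32.5%) were higher and 2289 (15.4%) lower in IRI24h kidneys, and 2641 (17.7%) were higher and 1568 (10.5%) lower in IRI4h kidneys.

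Markers of fat were present in 2 of the IRI24h libraries. *Adipoq*, the adiponectin gene of fat cells, was at 7.03, 0.0296 and 28.5 FPKM in IRI24h kidneys, against 0.163, 0.0376 and 0.283 FPKM in IRI4h kidneys, and *Plin1*, a lipid droplet protein of fat cells, at 6.38, 0.0600 and 24.8 FPKM in IRI24h kidneys, against 0.0613, 0.0254 and 0.246 FPKM in IRI4h kidneys. Both were near 0 in IRI24h replicate 2 and in the 3 IRI4h kidneys. With IRI24h replicate 2 as the only library at 24 hours, which is then assumed to vary like the other groups, 4622 genes were higher and 1295 lower. This alternative was chosen after seeing the data. Among the IRI4h kidneys replicate 1 was the highest for several inflammatory genes, with the neutrophil gene *S100a8* at 16.01, 23.3 and 17.2 FPKM in IRI24h kidneys, against 50.5, 7.73 and 7.31 FPKM in IRI4h kidneys, and without it 6132 genes were higher and 1916 lower. Unless said otherwise, the kidneys of the 2 groups did not overlap for the genes whose values are given per kidney below. Markers of red cells went the other way from those of fat: the globin gene *Hbb-bs* was at 5.402, 10.97 and 19.001 FPKM in IRI24h kidneys, against 81.5, 76.03 and 153 FPKM in IRI4h kidneys, a change of -3.22 (standard error 1.09, adjusted p = 0.011) that did not pass without IRI24h replicate 1.

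**Figure D1:**
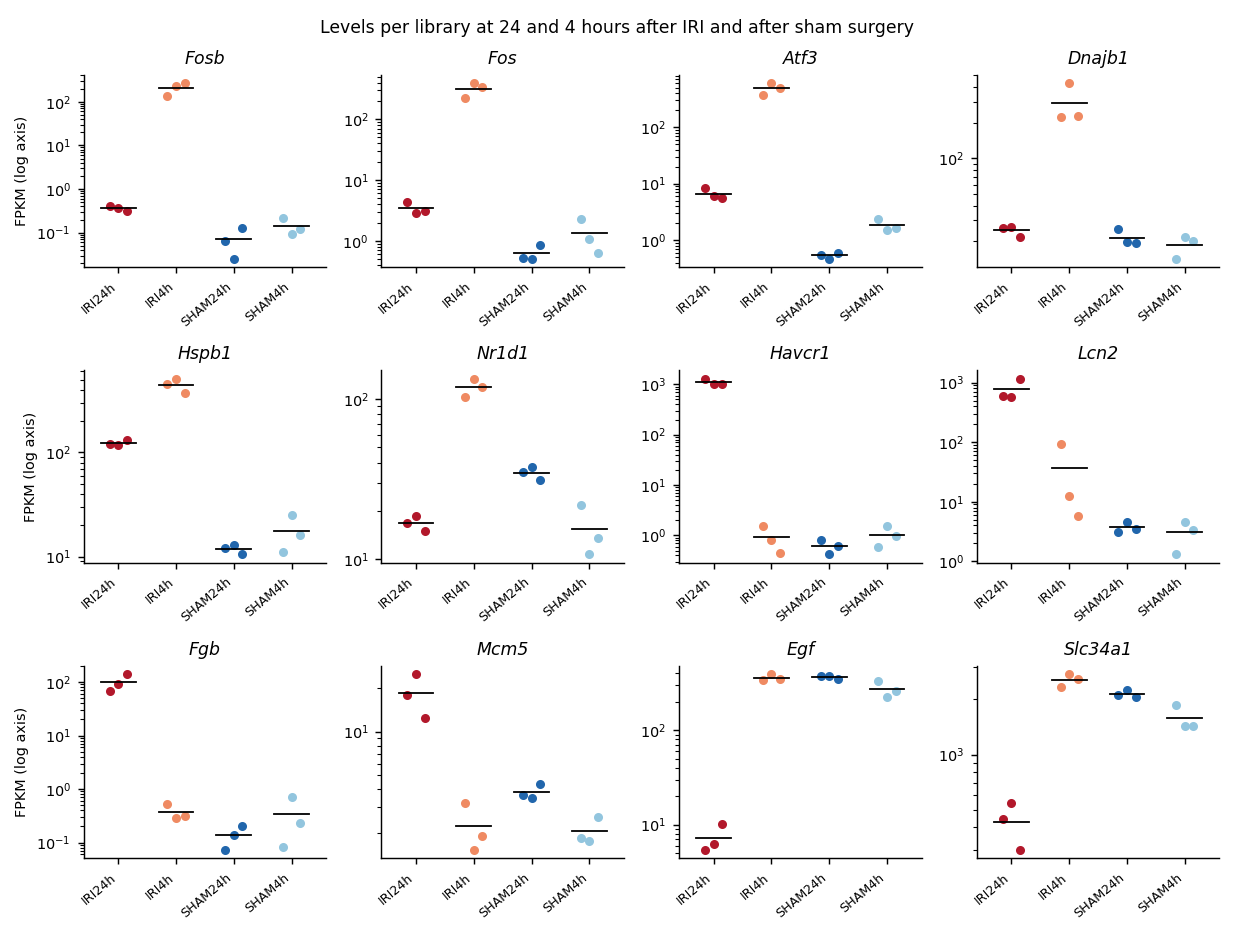
FPKM of 12 genes in each library on a log axis, in 4 groups of 3 libraries (IRI24h, IRI4h, SHAM24h and SHAM4h); points are libraries and bars are group means. The IRI24h libraries of *Fos*, *Atf3* and *Egf* sit below those of IRI4h, and those of *Havcr1*, *Fgb* and *Mcm5* above them, with no overlap.

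The 3 largest falls among protein-coding genes with at least 5 FPKM in either group were those of immediate early genes of the AP-1 transcription factor, a dimer of Fos, Jun and ATF family proteins. *Fosb*, on chromosome 7 from 19302696 to 19310051, was at 0.407, 0.361 and 0.315 FPKM in IRI24h kidneys, against 134, 224 and 264 FPKM in IRI4h kidneys, a change of -8.76 (standard error 0.54, adjusted p = 6.6e-15). *Fos*, on chromosome 12 from 85473890 to 85477273, was at 4.31, 2.89 and 3.08 FPKM in IRI24h kidneys, against 221, 389 and 334 FPKM in IRI4h kidneys, a change of -6.46 (standard error 0.79, adjusted p = 1.6e-08). At 2 hours after IRI *Fos* had stood at 711, 550.2 and 527 FPKM and at 48 hours at 3.31, 3.36 and 3.69 FPKM, high at both early times and low at both later ones. In sham kidneys *Fos* was at 0.522, 0.5102 and 0.845 FPKM in SHAM24h kidneys, against 2.28, 1.07 and 0.637 FPKM in SHAM4h kidneys, so every injured kidney at 24 hours still stood above every sham kidney of that time.

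Of 12 AP-1 subunit genes tested, 9 fell, none rose and 3 did not pass, with a median of -2.21. *Atf3*, a stress-induced member of the ATF family, was at 8.38, 6.02 and 5.46 FPKM in IRI24h kidneys, against 364, 598 and 502 FPKM in IRI4h kidneys, a change of -6.18 (standard error 0.48, adjusted p = 1.1e-12). *Jun* was at 28.9, 28.3 and 27.4 FPKM in IRI24h kidneys, against 229, 659.9 and 403 FPKM in IRI4h kidneys, a change of -3.797 (standard error 0.30, adjusted p = 1.3e-12), and *Junb* changed by -1.84. *Fosl1*, a Fos family member that is itself an AP-1 target, was at 13.6, 12.3 and 11.8 FPKM in IRI24h kidneys, against 39.5, 18.2 and 13.1 FPKM in IRI4h kidneys and did not pass (adjusted p = 0.21), with overlapping groups. In sham kidneys it was at 0.518, 0.658 and 0.794 FPKM in SHAM24h kidneys, against 0.537, 0.848 and 0.358 FPKM in SHAM4h kidneys, far under the injured kidneys at either time. In sham kidneys 3 of the 12 were lower at 24 hours and none higher, and the change after IRI lay below that after sham for 5.

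Other immediate early genes fell as well. Of 20 tested, 15 fell and 1 rose (*Ier5l*, 1.41, named after its value was seen), with a median of -2.05. *Egr1*, a zinc finger factor, was at 15.3, 7.26 and 7.47 FPKM in IRI24h kidneys, against 136, 360.2 and 303 FPKM in IRI4h kidneys, a change of -4.695 (standard error 0.84, adjusted p = 1.4e-05). The orphan nuclear receptor gene *Nr4a1* changed by -3.84 and *Nr4a3* by -3.96. *Arc*, best known from neurons, was at 1.98, 1.77 and 2.41 FPKM in IRI24h kidneys, against 24.8, 32.6 and 41.04 FPKM in IRI4h kidneys, a change of -3.92 (standard error 0.45, adjusted p = 5.3e-09). *Cyr61*, a matricellular protein gene that YAP also drives, was at 157, 128 and 151 FPKM in IRI24h kidneys, against 468, 877 and 801 FPKM in IRI4h kidneys, a change of -2.25 (standard error 0.52, adjusted p = 3.5e-04), and at 24 hours was still well above the 18.1, 11.03 and 16.2 FPKM of SHAM24h kidneys.

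Genes whose products end the same signals also fell. Of 22 feedback inhibitors of MAP kinase, cytokine and NF-kB signalling, 13 fell and none rose, with a median of -1.01, and without IRI4h replicate 1 there was 1 that rose. *Dusp1*, a phosphatase that inactivates MAP kinases, was at 12.3, 14.6 and 13.7 FPKM in IRI24h kidneys, against 136, 205 and 156 FPKM in IRI4h kidneys, a change of -3.59 (standard error 0.28, adjusted p = 1.1e-12). *Zfp36*, which destabilizes cytokine mRNAs, was at 35.98, 29.7 and 31.1 FPKM in IRI24h kidneys, against 185, 226 and 222 FPKM in IRI4h kidneys, a change of -2.71 (standard error 0.28, adjusted p = 6.3e-10). *Dusp8* and *Dusp5*, other MAP kinase phosphatases, changed by -2.76 and -1.897. *Socs3*, the feedback inhibitor of the interleukin 6 receptor, was an exception, at 24.3, 23.4 and 23.6 FPKM in IRI24h kidneys, against 47.2, 13.9 and 17.9 FPKM in IRI4h kidneys (adjusted p = 0.93, overlapping groups), with 1.098, 1.42 and 1.33 FPKM in SHAM24h kidneys. The sprouty gene *Spry1* (named after its value was seen) and the phosphatase gene *Dusp6* did not pass either, with changes of -0.25 and -0.19. In sham kidneys 6 of the 22 were lower at 24 hours and none higher. The change after IRI lay below that after sham for 8 and above it for none. *Dusp1*, *Dusp8* and *Dusp5* changed by -1.58, -1.38 and -1.31 after sham. The limma test of the difference from sham did not pass for *Dusp5* (adjusted p = 0.44).

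Chaperone genes of the heat shock response fell together. Of 18 tested, 12 fell, none rose and 6 did not pass, with a median of -1.45, and 12 fell under quantile normalization, under median centring, without any single library and with IRI24h replicate 2 alone as well. *Dnajb1*, a co-chaperone that hands unfolded proteins to Hsp70, was at 25.8, 26.5 and 21.9 FPKM in IRI24h kidneys, against 223, 429 and 229 FPKM in IRI4h kidneys, a change of -3.499 (standard error 0.27, adjusted p = 1.2e-12). *Hspb1*, which encodes a small chaperone on chromosome 5 from 135887919 to 135889563, was at 121, 117 and 131 FPKM in IRI24h kidneys, against 452, 508 and 374 FPKM in IRI4h kidneys, a change of -1.84 (standard error 0.40, adjusted p = 1.7e-04). *Hsph1*, an exchange factor of Hsp70, was at 47.9, 35.5 and 33.04 FPKM in IRI24h kidneys, against 175, 344 and 205 FPKM in IRI4h kidneys, a change of -2.59 (standard error 0.41, adjusted p = 2.0e-06). *Hsp90aa1*, the inducible Hsp90, changed by -1.91, *Dnaja1* by -2.51 and *Bag3*, a chaperone partner in autophagy, by -2.13.

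In sham kidneys the same 18 genes took another course, with 3 higher and 1 lower at 24 hours and a median of 0.22. The change after IRI was below that after sham for 12 and above it for none. *Dnajb1* was at 25.3, 19.7 and 19.3 FPKM in SHAM24h kidneys, against 14.3, 21.7 and 19.95 FPKM in SHAM4h kidneys, and IRI24h kidneys were within or near that range. *Hspb1* was at 12.2, 12.8 and 10.6 FPKM in SHAM24h kidneys, against 11.004, 25.1 and 16.3 FPKM in SHAM4h kidneys, and all 3 IRI24h kidneys lay above all 6 sham kidneys. The strongly heat-inducible genes *Hspa1a* and *Hspa1b*, which are near-identical copies, are listed at 0 in all 49 libraries and were not tested.

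Promoters of these genes were read for the heat shock element, written here as GAANNTTC, which reads the same on both strands, because the list is defined by that response. RefSeq promoter windows (GRCm38.p6, 250 bases before to 50 after a start) were found for 14 of the 18 genes, with 21 windows. Of these windows 10 (47.6%) held the element, against 5.87% of the 13166 windows of all genes tested and 7.86% of all 32851 windows. Some windows overlap, those of *Hsph1* with each other and that of *Hspe1* with a window of another gene of the list. An element can therefore be counted more than once. Genes with windows but no element were not tallied. They too included genes that fell, *Dnajb1* among them, and genes that did not pass. Of the 9 genes with an element in a window, all but *Chordc1*, an Hsp90 co-chaperone, and *Hspb8*, a small chaperone, fell, and these changed by 0.29 (adjusted p = 0.52) and -0.08 (adjusted p = 0.82; both named after their values were seen). The bases before the start are shown, with the element in capitals, for 4 of the genes that fell. *Dnaja4*, another Hsp70 co-chaperone, changed by -1.79 and *Hspe1*, the mitochondrial co-chaperonin, by -1.47 (both named after their values were seen). A match is a description of the letters and not a bound site.
Hspb1 (chr5:135887719-135887918, plus strand): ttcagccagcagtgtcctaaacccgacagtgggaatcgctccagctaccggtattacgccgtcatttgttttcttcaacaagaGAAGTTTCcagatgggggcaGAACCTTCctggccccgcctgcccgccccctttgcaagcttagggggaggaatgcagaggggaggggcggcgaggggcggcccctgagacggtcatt
Dnaja4 (chr9:54699359-54699558, plus strand): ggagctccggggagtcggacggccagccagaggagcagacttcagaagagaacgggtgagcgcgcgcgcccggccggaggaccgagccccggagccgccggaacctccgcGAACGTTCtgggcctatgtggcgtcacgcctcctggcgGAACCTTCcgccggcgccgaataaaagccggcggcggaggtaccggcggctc
Dnaja1 (chr4:40722268-40722467, plus strand): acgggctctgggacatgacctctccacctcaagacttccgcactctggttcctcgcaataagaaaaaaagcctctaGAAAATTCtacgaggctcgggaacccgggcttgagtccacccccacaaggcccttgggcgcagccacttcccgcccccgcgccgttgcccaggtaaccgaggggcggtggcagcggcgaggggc
Hspe1 (chr1:55087948-55088147, plus strand): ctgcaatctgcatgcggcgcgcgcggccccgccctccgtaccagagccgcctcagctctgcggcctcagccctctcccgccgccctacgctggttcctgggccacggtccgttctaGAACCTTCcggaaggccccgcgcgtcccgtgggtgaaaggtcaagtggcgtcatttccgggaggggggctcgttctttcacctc
The elements of *Hspb1* start 117 and 97 bases before the annotated start, those of *Dnaja4* 90 and 52 bases, and the single ones of *Dnaja1* and *Hspe1* 124 and 84 bases. *Dnaja1* and *Dnaja4* also have windows at other annotated starts that hold no element. The windows shown were picked because they hold it.

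Most chaperone genes of the endoplasmic reticulum did not pass. Of 16 chaperones and folding enzymes of that compartment, 3 fell and 1 rose, and without IRI4h replicate 3 or IRI24h replicate 1 none rose. After median centring 8 fell and none rose. *Herpud1*, a component of the degradation machinery of the endoplasmic reticulum, was at 88.3, 93.1 and 87.6 FPKM in IRI24h kidneys, against 459, 567 and 535 FPKM in IRI4h kidneys, a change of -2.53 (standard error 0.18, adjusted p = 1.5e-13). It fell in sham kidneys too, at 204, 169 and 196 FPKM in SHAM24h kidneys, against 519.6, 477 and 525 FPKM in SHAM4h kidneys, a change of -1.42. The list as a whole took another course, with 6 of 16 higher and 2 lower after sham and a median of 0.34. The change after IRI lay below that after sham for 5 and above it for none. *Hspa5*, the main chaperone of the compartment, was at 234, 177 and 189.8 FPKM in IRI24h kidneys, against 465, 484 and 482 FPKM in IRI4h kidneys, a change of -1.26 (standard error 0.25, adjusted p = 5.5e-05). *Hsp90b1* changed by -0.12 and did not pass. The CCAAT box (CCAAT, sought on both strands) was present in 13 of the 14 promoter windows of this list (92.9%) and in 36.9% of the windows of all genes tested, and the bases before the start of *Herpud1* show a pair of them in capitals.
Herpud1 (chr8:94386229-94386428, plus strand): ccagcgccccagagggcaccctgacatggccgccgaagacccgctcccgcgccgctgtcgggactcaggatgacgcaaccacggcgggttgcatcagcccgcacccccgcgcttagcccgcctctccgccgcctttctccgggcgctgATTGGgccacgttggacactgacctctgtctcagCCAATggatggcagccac

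The integrated stress response, in which ATF4 turns on amino acid synthesis and CHOP after translation is slowed, moved in both directions. Of 15 genes, 7 fell and 5 rose. Among those that fell, *Ppp1r15a*, which restores translation, was at 7.58, 6.66 and 7.13 FPKM in IRI24h kidneys, against 76.3, 86.3 and 78.2 FPKM in IRI4h kidneys, a change of -3.48 (standard error 0.19, adjusted p = 5.3e-16), and *Ddit3* (CHOP) changed by -1.901. Among those that rose, *Asns*, asparagine synthetase, was at 17.2, 18.2 and 13.5 FPKM in IRI24h kidneys, against 8.77, 4.85 and 3.37 FPKM in IRI4h kidneys, a change of 1.61 (standard error 0.28, adjusted p = 7.7e-06), and the factor gene *Atf5* was at 44.4, 38.5 and 32.1 FPKM in IRI24h kidneys, against 13.01, 10.5 and 8.55 FPKM in IRI4h kidneys, a change of 1.84 (standard error 0.23, adjusted p = 1.8e-08). *Psat1*, an enzyme of serine synthesis (named after its values were seen), changed by 1.66 after IRI and by -1.003 after sham. Of the 15 genes, 5 were lower and 1 higher at 24 hours in sham kidneys. For 5 the change after IRI exceeded that after sham, and for 4 it lay below. Of 18 hypoxia-inducible genes 5 fell and none rose (3 fell without IRI24h replicate 1, and 1 rose without IRI4h replicate 1), and after median centring 10 fell. *Pfkfb3*, a regulator of glycolysis, changed by -1.36, and *Vegfa*, the vascular growth factor gene, by -0.56, against 1.31 in sham kidneys.

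Genes induced by glucocorticoids fell in injured and in sham kidneys. Of 12 genes of the list, 6 were lower and 1 higher in IRI24h than in IRI4h, and 10 were lower and none higher in SHAM24h than in SHAM4h. *Pdk4*, which blocks pyruvate entry into mitochondria, was at 33.2, 12.7 and 49.6 FPKM in IRI24h kidneys, against 186, 198 and 215 FPKM in IRI4h kidneys, a change of -2.85 (standard error 0.50, adjusted p = 8.3e-06). In sham kidneys it was at 10.7, 5.29 and 6.76 FPKM in SHAM24h kidneys, against 104, 219 and 159.7 FPKM in SHAM4h kidneys, a change of -4.38 (standard error 0.50, adjusted p = 1.6e-08). *Sgk1*, a kinase of sodium transport, changed by -2.24 after IRI and by -2.02 after sham, and *Tsc22d3* (GILZ) by -1.12 and -1.66. The metallothionein gene *Mt2* was the contrary case, with 807, 808 and 1093 FPKM in IRI24h kidneys, against 1553, 709 and 505 FPKM in IRI4h kidneys (adjusted p = 0.84, overlapping groups), while SHAM24h kidneys had 61.6, 50.6 and 50.2 FPKM and SHAM4h kidneys 218, 265 and 185 FPKM. The change of *Mt2* after IRI exceeded that after sham by 2.15 (standard error 0.64, adjusted p = 0.0078).

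**Figure D2:**
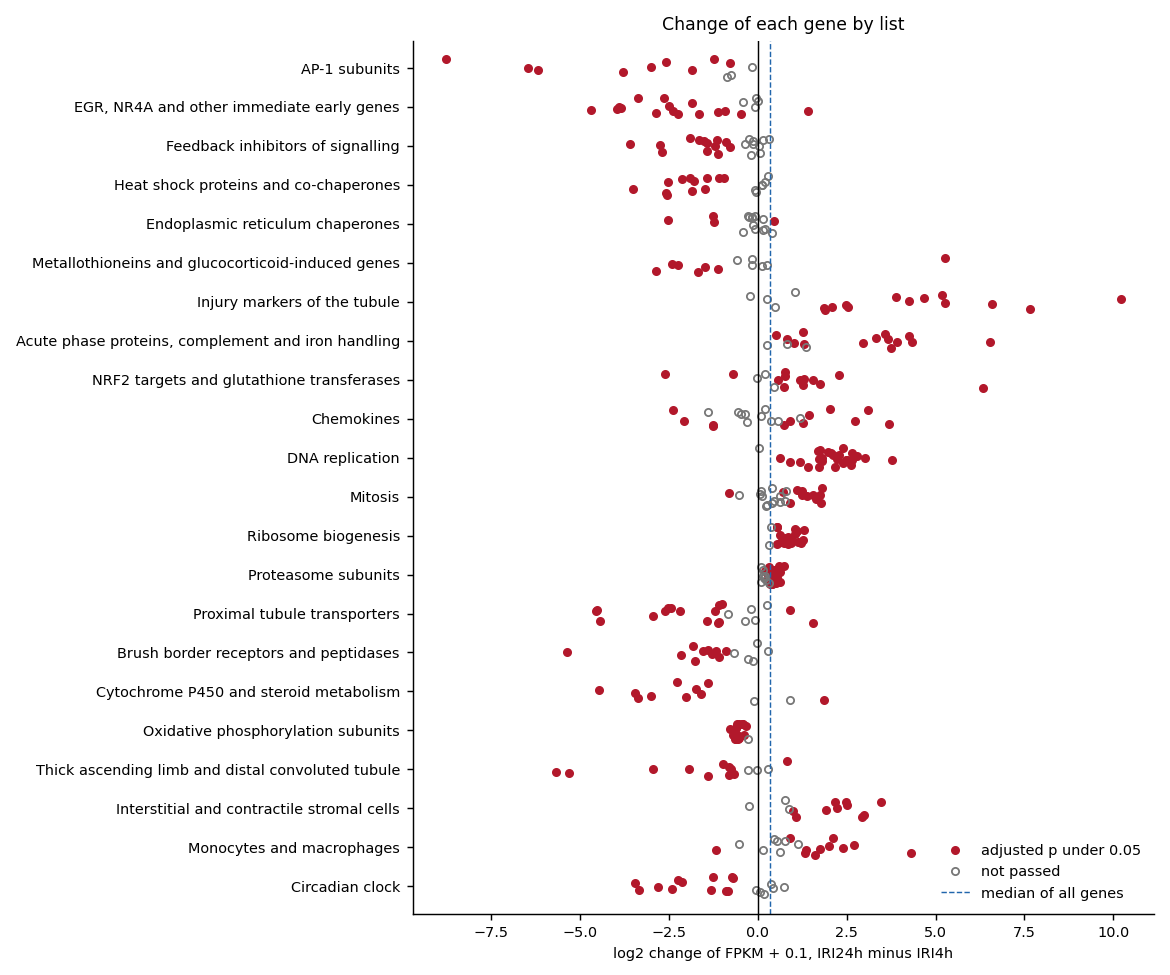
Log2 change (IRI24h minus IRI4h) of each gene tested in 22 of the lists, 1 point per gene, filled where the gene passed at adjusted p under 0.05 and open where it did not; vertical lines mark 0 and the median of all genes, 0.33. The AP-1 and heat shock lists have medians of -2.21 and -1.45, left of both lines, and the injury and DNA replication lists medians of 2.53 and 2.12, right of both.

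The largest rise of all named genes was that of *Havcr1*, which encodes kidney injury molecule 1, a phosphatidylserine receptor of injured proximal tubule cells, on chromosome 11 from 46735080 to 46779578. It was at 1286, 1017 and 1016 FPKM in IRI24h kidneys, against 1.53, 0.815 and 0.439 FPKM in IRI4h kidneys, a change of 10.21 (standard error 0.90, adjusted p = 1.8e-11). Sham kidneys had 0.8199, 0.425 and 0.607 FPKM in SHAM24h kidneys, against 0.576, 1.504 and 0.955 FPKM in SHAM4h kidneys, which overlaps the IRI4h values. *Lcn2*, an iron-siderophore binding protein of injured distal tubule and neutrophils, was at 603, 570.3 and 1159 FPKM in IRI24h kidneys, against 93.5, 12.3 and 5.87 FPKM in IRI4h kidneys, a change of 5.27 (standard error 0.88, adjusted p = 4.6e-06). SHAM4h kidneys had 1.32, 4.603 and 3.34 FPKM, and IRI4h kidneys were already above them by 2.75 (standard error 0.88, adjusted p = 0.017).

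Of 17 injury genes of the tubule, 13 rose, none fell and 4 did not pass, with a median of 2.53. Genes of fibrinogen, the clotting protein that the liver makes in health, were among them. *Fgb* was at 68.04, 90.8 and 139 FPKM in IRI24h kidneys, against 0.535, 0.293 and 0.309 FPKM in IRI4h kidneys, a change of 7.67 (standard error 0.88, adjusted p = 4.2e-09), and *Fgg* at 183, 225 and 401 FPKM in IRI24h kidneys, against 4.71, 1.76 and 2.003 FPKM in IRI4h kidneys, a change of 6.58 (standard error 0.89, adjusted p = 1.2e-07). *Spp1*, osteopontin, reached 17404, 15298 and 15141 FPKM in IRI24h kidneys, against 1404, 689 and 601 FPKM in IRI4h kidneys, a change of 4.25 (standard error 0.46, adjusted p = 1.6e-09). *Clu*, clusterin, changed by 2.49 and *Timp1*, an inhibitor of metalloproteinases, by 5.18. *Sox9*, a factor of regenerating tubule cells, was at 5.54, 4.804 and 6.42 FPKM in IRI24h kidneys, against 4.22, 2.33 and 1.8998 FPKM in IRI4h kidneys and did not pass (adjusted p = 0.062). Sham kidneys had 0.208, 0.2598 and 0.236 FPKM in SHAM24h kidneys, against 0.105, 0.275 and 0.128 FPKM in SHAM4h kidneys for *Sox9*, and IRI kidneys were above them by 4.08 (standard error 0.48, adjusted p = 8.9e-09) at 24 hours and 3.41 (standard error 0.48, adjusted p = 8.9e-07) at 4 hours.

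Genes of keratins and of the cornified envelope were among those that rose. Of 11 keratin and cornified envelope genes 7 rose and 1 fell. Without IRI4h replicate 3 there were 4 that rose, without IRI24h replicate 1 or IRI4h replicate 1 none fell, and with IRI24h replicate 2 alone 2 rose and none fell. *Sprr2f*, a small proline-rich protein of cornifying cells, was at 21.05, 39.6 and 22.4 FPKM in IRI24h kidneys, against 2.51, 1.16 and 0.0859 FPKM in IRI4h kidneys, a change of 4.97 (standard error 0.75, adjusted p = 7.4e-07). *Sprr1a*, another of that family, was at 97.3, 89.8 and 104 FPKM in IRI24h kidneys, against 16.8, 14.6 and 10.1 FPKM in IRI4h kidneys, a change of 2.83 (standard error 0.60, adjusted p = 1.4e-04). *Krt19* changed by 1.88 and *Krt20*, which did not pass without IRI4h replicate 3, was at 149.9, 141 and 211 FPKM in IRI24h kidneys, against 80.2, 30.7 and 7.92 FPKM in IRI4h kidneys, a change of 2.61 (standard error 0.85, adjusted p = 0.0088). *Krt8*, a keratin of simple epithelia, was at 364, 416 and 355 FPKM in IRI24h kidneys, against 634, 413 and 426 FPKM in IRI4h kidneys, with overlapping groups, and did not pass. *Crct1*, a gene of cornified layers, changed by 6.13. In sham kidneys 3 of the 11 were higher at 24 hours and none lower. The change after IRI exceeded that after sham for 3 and lay below it for none.

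Acute phase, complement and iron genes rose with few exceptions: 14 of 17 were higher, none was lower and the median was 2.97. With either other scaling 11 of them rose, and with IRI24h replicate 2 alone 6, *Saa3*, *Serpina3n* and *Hp* not among them. *Saa3*, a serum amyloid A made outside the liver, was at 2.20, 1.52 and 23.5 FPKM in IRI24h kidneys, against 1.198, 0 and 0.0990 FPKM in IRI4h kidneys, a change of 3.91 (standard error 0.93, adjusted p = 5.2e-04). *Saa1* was at 2.89, 12.6 and 21.3 FPKM in IRI24h kidneys and is listed at 0 in all 3 IRI4h kidneys. *Serpina3n*, a protease inhibitor, was at 19.7, 10.8 and 83.03 FPKM in IRI24h kidneys, against 7.25, 0.541 and 0.355 FPKM in IRI4h kidneys, a change of 4.34 (standard error 1.00, adjusted p = 3.6e-04). *C3*, the central complement component, was at 43.1, 41.6 and 61.7 FPKM in IRI24h kidneys, against 16.02, 1.35 and 1.82 FPKM in IRI4h kidneys, a change of 3.76 (standard error 0.74, adjusted p = 5.4e-05). IRI4h replicate 1 stood apart from the other IRI4h kidneys for *C3*. *Hp*, haptoglobin, was at 68.7, 2.31 and 255 FPKM in IRI24h kidneys, against 4.93, 0.833 and 1.19 FPKM in IRI4h kidneys, a change of 4.26 (standard error 1.13, adjusted p = 0.0016), with overlapping groups, and did not pass with only the 6 libraries compared in the fit. Fat cells are known to make it too, and it was highest in the 2 libraries with fat markers.

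The interleukin 6 family and the chemokines held genes that rose and genes that fell. In the interleukin 6 family the share higher was near the 42.9% of all genes, and the share lower was above the 13.7%. *Il6* was at 1.29, 1.304 and 0.642 FPKM in IRI24h kidneys, against 16.7, 5.98 and 5.06 FPKM in IRI4h kidneys, a change of -2.84 (standard error 0.54, adjusted p = 2.9e-05), while *Il11* was at 6.35, 8.87 and 3.24 FPKM in IRI24h kidneys, against 2.22, 1.08 and 0.475 FPKM in IRI4h kidneys, a change of 2.31 (standard error 0.52, adjusted p = 3.0e-04), and *Clcf1*, another ligand of the family, changed by 1.94. Of the 10 family genes 4 rose and 3 fell (3 and 1 with IRI24h replicate 2 alone, and 2 rose after median centring).

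Among 22 chemokines 8 rose and 4 fell, a share higher under the 42.9% of all genes and a share lower somewhat above the 13.7%. When any 1 of the 6 libraries was left out 5 to 8 rose and 2 to 4 fell, and after median centring 4 rose and 6 fell. The neutrophil attractants *Cxcl1* and *Cxcl2* fell, *Cxcl1* being at 15.1, 14.6 and 13.7 FPKM in IRI24h kidneys, against 132, 68.7 and 48.6 FPKM in IRI4h kidneys, a change of -2.39 (standard error 0.57, adjusted p = 5.3e-04), and *Cxcl2* changing by -2.07. The monocyte attractants *Ccl9* and *Ccl12* rose, *Ccl9* being at 3.63, 3.94 and 5.17 FPKM in IRI24h kidneys, against 1.51, 0.283 and 0.347 FPKM in IRI4h kidneys, a change of 2.72 (standard error 0.51, adjusted p = 2.2e-05), and *Ccl12* changing by 3.11. *Cxcl17*, a mucosal chemokine, was at 2.13, 1.86 and 2.76 FPKM in IRI24h kidneys, against 0.154, 0.128 and 0 FPKM in IRI4h kidneys, a change of 3.69 (standard error 0.52, adjusted p = 2.2e-07).

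Antioxidant genes under NRF2, the factor that answers electrophiles and oxidants, mostly rose: 11 of 16 were higher and 2 lower, and 7 were higher after median centring. *Gsta1*, a glutathione transferase, was at 105, 61.2 and 45.1 FPKM in IRI24h kidneys, against 1.02, 0.726 and 0.481 FPKM in IRI4h kidneys, a change of 6.35 (standard error 0.74, adjusted p = 7.0e-09). The Gsta, Sprr2 and Saa genes have close paralogs, so their reads may be shared between copies. *Nqo1*, a quinone reductase, was at 154, 108 and 121 FPKM in IRI24h kidneys, against 21.8, 27.4 and 29.2 FPKM in IRI4h kidneys, a change of 2.28 (standard error 0.33, adjusted p = 4.9e-07), and *G6pdx*, the entry enzyme of the pentose phosphate pathway, changed by 1.76. *Cbr3*, a carbonyl reductase, changed by 5.07. *Osgin1*, an oxidative stress-induced growth inhibitor, fell, at 31.5, 28.3 and 33.2 FPKM in IRI24h kidneys, against 147, 241 and 188 FPKM in IRI4h kidneys, a change of -2.601 (standard error 0.32, adjusted p = 1.9e-08). *Hmox1*, heme oxygenase, was at 242, 140.004 and 212 FPKM in IRI24h kidneys, against 181, 244 and 105 FPKM in IRI4h kidneys, with overlapping groups, and did not pass (adjusted p = 0.67). Sham kidneys had 21.1, 19.996 and 18.1 FPKM in SHAM24h kidneys, against 78.9, 331 and 60.7 FPKM in SHAM4h kidneys of *Hmox1*.

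Targets of p53 went in both directions, with 6 of 14 higher and 4 lower, the share higher being that of all genes (42.9%). After quantile normalization 6 were higher and 6 lower, and after median centring 5 were higher and 8 lower. The change after IRI exceeded that after sham for 7 and lay below it for 1. *Phlda3*, an inhibitor of Akt, was at 20.6, 19.8 and 22.3 FPKM in IRI24h kidneys, against 4.77, 3.501 and 4.08 FPKM in IRI4h kidneys, a change of 2.33 (standard error 0.26, adjusted p = 3.2e-09), and *Eda2r*, a receptor of the TNF family, changed by 2.397. *Plk2*, a stress kinase, was at 7.901, 7.42 and 7.85 FPKM in IRI24h kidneys, against 27.8, 33.9 and 38.5 FPKM in IRI4h kidneys, a change of -2.09 (standard error 0.25, adjusted p = 1.4e-08). *Cdkn1a*, the cell cycle inhibitor p21, was at 31.4, 27.1 and 37.1 FPKM in IRI24h kidneys, against 88.4, 65.5 and 50.7 FPKM in IRI4h kidneys and did not pass (adjusted p = 0.079).

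Genes of DNA replication rose nearly without exception. Of 27 tested, 26 rose and none fell, with a median of 2.12. The count was 26 after quantile normalization, 25 after median centring and 26 with any 1 library left out or with IRI24h replicate 2 alone. *Mcm5*, a subunit of the replicative helicase, was at 17.996, 24.9 and 12.3 FPKM in IRI24h kidneys, against 3.22, 1.52 and 1.91 FPKM in IRI4h kidneys, a change of 3.01 (standard error 0.27, adjusted p = 3.2e-11). *Uhrf1*, which carries DNA methylation through replication, was at 14.2, 21.5 and 9.698 FPKM in IRI24h kidneys, against 1.56, 0.713 and 0.775 FPKM in IRI4h kidneys, a change of 3.78 (standard error 0.41, adjusted p = 1.3e-09), and *Pole*, the leading strand polymerase, changed by 2.803. *Ccne1*, the cyclin of S phase entry, was at 3.02, 4.53 and 2.51 FPKM in IRI24h kidneys, against 0.541, 0.354 and 0.433 FPKM in IRI4h kidneys, a change of 2.64 (standard error 0.35, adjusted p = 7.1e-08). In sham kidneys 12 of the 27 were higher and 1 lower at 24 hours, with a median of 0.55, and the change after IRI exceeded that after sham for 22.

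Of 25 genes of mitosis 11 rose and 1 fell, a share higher that is close to the 42.9% of all genes, with a median of 0.71. After quantile normalization 6 rose and 2 fell, after median centring 8 rose and 1 fell, and with any 1 of the 6 libraries left out 8 to 12 rose and none fell. *Top2a*, which untangles sister chromatids, was at 3.04, 4.48 and 2.59 FPKM in IRI24h kidneys, against 1.14, 0.636 and 0.905 FPKM in IRI4h kidneys, a change of 1.801 (standard error 0.45, adjusted p = 9.1e-04), and *Cdk1*, the mitotic kinase, at 2.84, 3.896 and 2.11 FPKM in IRI24h kidneys, against 0.894, 0.733 and 0.942 FPKM in IRI4h kidneys, a change of 1.64 (standard error 0.38, adjusted p = 4.2e-04). *Ccnb1*, the cyclin that activates Cdk1, was at 0.9696, 1.26 and 0.9004 FPKM in IRI24h kidneys, against 0.594, 0.723 and 0.578 FPKM in IRI4h kidneys and *Mki67* at 1.17, 1.95 and 0.982 FPKM in IRI24h kidneys, against 0.8301, 0.677 and 0.648 FPKM in IRI4h kidneys, and neither passed. At 48 hours after IRI *Cdk1* stood at 22.4, 30.6 and 18.02 FPKM, higher than at 24 hours by 2.97 (standard error 0.38, adjusted p = 4.3e-07). *Mcm5*, by contrast, was at 14.7, 14.8 and 14.95 FPKM at 48 hours, a change of -0.25 from 24 hours that did not pass. In sham kidneys none of the 25 was higher at 24 hours and 5 were lower, and the change after IRI exceeded that after sham for 15.

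CCAAT boxes lay in 20 of 22 promoter windows of the mitosis list (90.9%) and 16 of 23 of the replication list (69.6%), against 36.9% over all genes tested. High shares were not particular to these lists. They were 83.3% for cholesterol synthesis and 75% for the circadian clock, but 21.1% for ribosome biogenesis. The bases before the start are shown for 1 gene of each list, with the boxes of either strand in capitals, since the factor NF-Y is known to bind them in many cell cycle promoters.
Mcm5 (chr8:75109309-75109508, plus strand): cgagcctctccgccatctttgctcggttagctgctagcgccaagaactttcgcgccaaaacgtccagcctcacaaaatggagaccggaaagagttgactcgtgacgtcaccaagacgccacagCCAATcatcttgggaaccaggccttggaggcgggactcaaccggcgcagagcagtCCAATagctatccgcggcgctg
Cdk1 (chr10:69352913-69353162, minus strand): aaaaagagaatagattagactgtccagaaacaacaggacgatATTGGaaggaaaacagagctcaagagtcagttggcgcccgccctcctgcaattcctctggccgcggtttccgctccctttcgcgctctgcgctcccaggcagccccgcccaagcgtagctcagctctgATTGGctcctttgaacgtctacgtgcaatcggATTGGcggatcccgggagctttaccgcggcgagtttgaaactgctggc
The window of *Mcm5* holds 3 boxes, of which 1 does not lie before the start and is not shown. Its others start 77 and 22 bases before the annotated start and those of *Cdk1* 208, 80 and 48 bases.

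Genes that build ribosomes rose as well. Of 22 ribosome biogenesis genes 20 rose and none fell, with a median of 0.85, and 13 rose after median centring. *Polr1a*, the largest subunit of RNA polymerase I, was at 8.37, 9.27 and 9.32 FPKM in IRI24h kidneys, against 3.47, 3.91 and 3.36 FPKM in IRI4h kidneys, a change of 1.31 (standard error 0.12, adjusted p = 1.9e-11). *Nop56*, a core protein of box C/D particles, changed by 1.204 and *Dkc1*, dyskerin, by 1.28. In sham kidneys *Polr1a* changed by 0.25, and the change after IRI exceeded that after sham for 19 of the list. Of 12 aminoacyl-tRNA synthetases 10 rose (5 after median centring, where 1 fell, and 6 with IRI24h replicate 2 alone), with *Iars* at 1.37. Among 31 proteasome subunits 23 rose and none fell, but their median of 0.39 is close to that of all genes. After quantile normalization 27 rose and none fell, while after median centring 3 rose and 2 fell. With IRI24h replicate 2 alone 12 rose. *Psmd14*, the deubiquitinase of the lid, had the largest change of them, 0.75 (standard error 0.11, adjusted p = 2.6e-07). Of the 31 subunits, 2 were higher and 9 lower at 24 hours in sham kidneys. For 22 the change after IRI exceeded that after sham, and for 1 it lay below.

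Most transporter genes of the proximal tubule fell. Of 21 tested, 14 fell and 2 rose, with a median of -1.12, and 1 rose without IRI24h replicate 2, IRI4h replicate 2 or IRI4h replicate 3. *Slc34a1*, the phosphate transporter, was at 444, 544 and 302 FPKM in IRI24h kidneys, against 2331, 2744 and 2603 FPKM in IRI4h kidneys, a change of -2.61 (standard error 0.21, adjusted p = 1.7e-12). *Slc7a13*, an amino acid transporter of the S3 segment, was at 16.8, 10.9 and 10.5 FPKM in IRI24h kidneys, against 197, 326 and 369.98 FPKM in IRI4h kidneys, a change of -4.52 (standard error 0.64, adjusted p = 2.7e-07), and *Slc22a7*, an organic anion transporter, at 4.07, 4.25 and 8.33 FPKM in IRI24h kidneys, against 102, 119 and 159.7 FPKM in IRI4h kidneys, a change of -4.55 (standard error 0.69, adjusted p = 8.5e-07). *Slc34a3*, another phosphate transporter, changed by -4.45. Sham kidneys had 2124, 2243 and 2069 FPKM in SHAM24h kidneys, against 1865, 1427 and 1433 FPKM in SHAM4h kidneys of *Slc34a1*, so that IRI24h kidneys lay below and IRI4h kidneys above all 6 sham kidneys. *Slc22a6*, the organic anion transporter OAT1, did not pass, with a change of -0.37. The amino acid transporter *Slc6a18* (named after its values were seen) rose, at 294, 269 and 369 FPKM in IRI24h kidneys, against 134, 85.6 and 97.4 FPKM in IRI4h kidneys, a change of 1.57 (standard error 0.15, adjusted p = 1.4e-10).

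Of 15 brush border receptors and peptidases 10 fell and none rose (1 rose after quantile normalization). *Mep1b*, a meprin subunit, was at 1.51, 2.08 and 2.17 FPKM in IRI24h kidneys, against 69.7, 77.3 and 101 FPKM in IRI4h kidneys, a change of -5.36 (standard error 0.76, adjusted p = 3.0e-07). *Napsa*, an aspartic protease, was at 179, 161 and 210.2 FPKM in IRI24h kidneys, against 929, 652 and 883 FPKM in IRI4h kidneys, a change of -2.16 (standard error 0.29, adjusted p = 7.7e-08), and *Dpep1*, a dipeptidase, changed by -1.81. The endocytic receptors *Lrp2* (megalin) and *Cubn* (cubilin) did not pass, with changes of -0.12 and -0.27, while both rose in sham kidneys, by 1.17 and 1.200. The change of *Lrp2* after IRI was below that after sham by a difference of -1.295 (standard error 0.39, adjusted p = 0.0078). Of 17 transcription factors of the tubule 4 rose and 4 fell, with 4 rising and 5 falling after quantile normalization, 1 rising and 6 falling after median centring, 1 falling without IRI4h replicate 2 and 2 falling without IRI24h replicate 2 or IRI4h replicate 3. *Hnf4a*, the master factor of the proximal tubule, was at 187, 193 and 152 FPKM in IRI24h kidneys, against 151, 165 and 169 FPKM in IRI4h kidneys, with overlapping groups, and did not pass (adjusted p = 0.37).

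Enzymes of proximal tubule metabolism fell as well. Of 12 genes of cytochromes P450 and steroid metabolism 9 fell and 1 rose, and the rise was lost in 5 of the 6 fits that left out 1 library. *Cyp2e1* was at 105, 115 and 214 FPKM in IRI24h kidneys, against 816, 1356 and 1207 FPKM in IRI4h kidneys, a change of -3.003 (standard error 0.33, adjusted p = 1.8e-09), and *Cyp7b1* changed by -4.47. *Inmt*, a methyltransferase, and *Hpd*, a tyrosine-degrading enzyme, changed by -4.97 and -4.68. Of 7 gluconeogenesis genes 5 fell and 1 rose. *Fbp1*, fructose-bisphosphatase, was at 189, 193 and 214 FPKM in IRI24h kidneys, against 855, 826 and 856 FPKM in IRI4h kidneys, a change of -2.09 (standard error 0.14, adjusted p = 6.6e-14), while *Gpt2*, an alanine transaminase, rose by 1.75. The glucose-6-phosphatase gene *G6pc* changed by -2.36 after IRI and -2.41 after sham. Of the 7 gluconeogenesis genes, 4 were lower and 1 higher at 24 hours in sham kidneys too. For 4 the change after IRI lay below that after sham, and for 1 it lay above.

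Genes of oxidative phosphorylation fell by little but nearly all of them did. Of 19 nuclear-encoded subunits 18 fell and none rose, with a median of -0.57, and 15 fell after quantile normalization. *Atp5a1*, a subunit of ATP synthase, was at 636, 605 and 602 FPKM in IRI24h kidneys, against 949, 951 and 966 FPKM in IRI4h kidneys, a change of -0.64 (standard error 0.08, adjusted p = 1.2e-08), and *Sdhb*, of complex II, changed by -0.78. In sham kidneys 2 of the 19 were lower, and the change after IRI was below that after sham for 11. Of 20 fatty acid oxidation genes 6 fell and none rose (1 rose without IRI24h replicate 2 or after quantile normalization, and 11 fell after median centring), *Acadm*, the medium-chain dehydrogenase, being at 185, 165 and 209.7 FPKM in IRI24h kidneys, against 591, 558 and 692 FPKM in IRI4h kidneys, a change of -1.72 (standard error 0.21, adjusted p = 1.3e-08), and *Cpt1a*, the gate of entry into mitochondria, changing by -0.24 (adjusted p = 0.32).

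Defining genes of the segments beyond the proximal tubule fell in part. Of 14 genes of the thick ascending limb and distal convoluted tubule 10 fell and 1 rose. *Egf*, the growth factor that these segments shed into urine, on chromosome 3 from 129677565 to 129755316, was at 5.43, 6.17 and 10.3 FPKM in IRI24h kidneys, against 341, 391 and 350.3 FPKM in IRI4h kidneys, a change of -5.66 (standard error 0.31, adjusted p = 4.2e-16). *Pvalb*, parvalbumin of the early distal convoluted tubule, was at 0.419, 0.176 and 0.498 FPKM in IRI24h kidneys, against 17.8, 16.1 and 18.2 FPKM in IRI4h kidneys, a change of -5.304 (standard error 0.78, adjusted p = 5.0e-07), and *Slc12a1*, the cotransporter NKCC2, at 21.7, 28.6 and 33.5 FPKM in IRI24h kidneys, against 204, 200.2 and 233 FPKM in IRI4h kidneys, a change of -2.94 (standard error 0.31, adjusted p = 7.0e-10). *Slc12a3*, the thiazide-sensitive cotransporter of the same segment as *Pvalb*, was at 188, 196 and 165 FPKM in IRI24h kidneys, against 222, 227 and 221 FPKM in IRI4h kidneys and did not pass. At 2 hours after IRI *Egf* was at 451, 429 and 307 FPKM, at 48 hours at 13.96, 20.98 and 13.9 FPKM. Of 13 collecting duct genes 5 fell and 1 rose, and 2 rose without IRI4h replicate 3. The single rise in either of these lists was lost under both other scalings. The ligand *Hbegf*, which binds the same receptor as Egf, was at 25.01, 21.1 and 22.9 FPKM in IRI24h kidneys, against 142, 195 and 192 FPKM in IRI4h kidneys, a change of -2.92 (standard error 0.27, adjusted p = 6.0e-11). Of 10 ligands and receptors of the EGF receptor family 2 (*Egf* and *Hbegf*) fell, 3 rose and 5 did not pass, with a median of 0.01, and under either other scaling 2 rose and 5 fell (4 fell without IRI4h replicate 3). Those that rose were the ligand genes *Tgfa* (1.23) and *Nrg1* (0.89) and the receptor gene *Erbb2* (0.81), *Erbb2* being named after its value was seen. *Nrg1* did not pass under either other scaling or without 1 of 4 libraries (IRI4h replicate 2 or 3, IRI24h replicate 1 or 3).

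**Figure D3:**
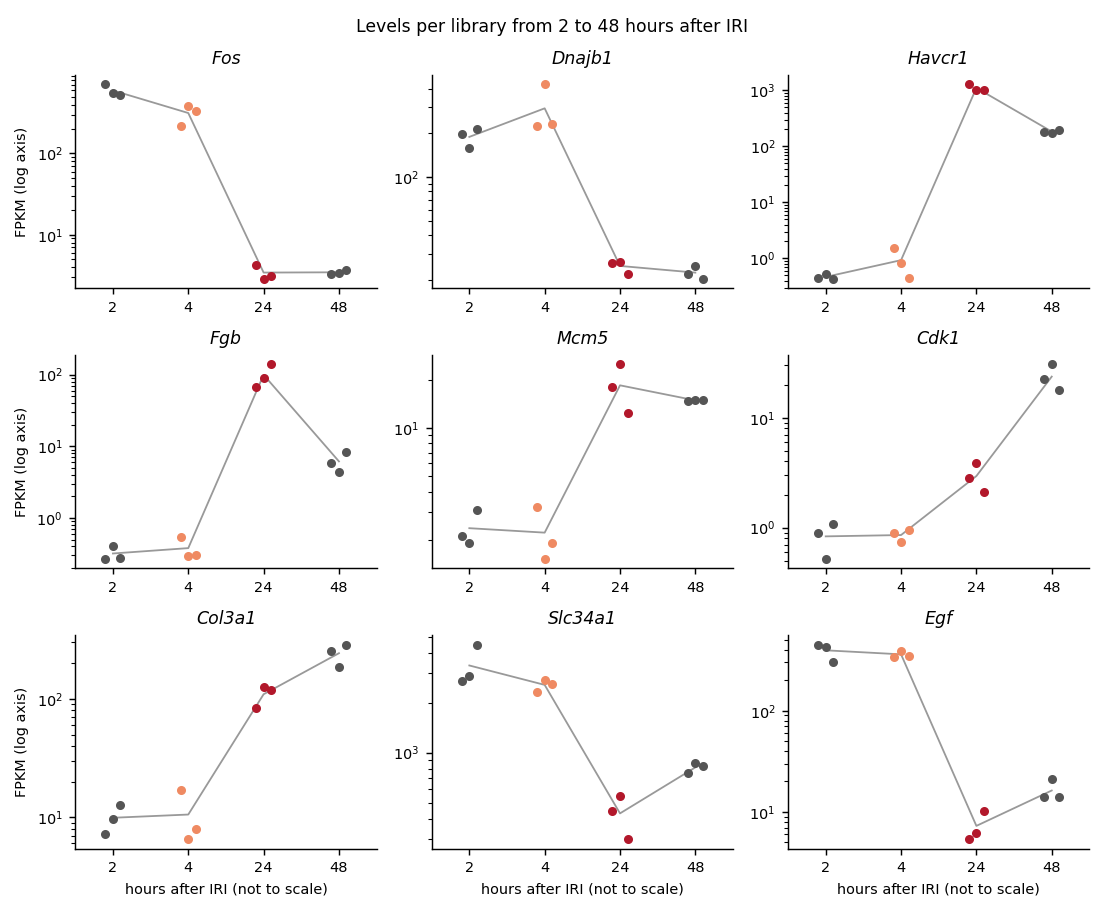
FPKM of 9 genes in each library at 2, 4, 24 and 48 hours after IRI, on a log axis, with lines through the group means. The mean of *Fos* is highest at 2 hours and that of *Dnajb1* at 4 hours, those of *Havcr1*, *Fgb* and *Mcm5* at 24 hours and those of *Cdk1* and *Col3a1* at 48 hours, and *Egf* and *Slc34a1* are lower at 24 than at 4 hours.

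Genes of stromal cells rose. Of 13 genes 10 were higher and none lower, with a median of 2.16, and 8 were higher with IRI24h replicate 2 alone. *Col3a1*, a fibrillar collagen, was at 83.4, 126 and 119 FPKM in IRI24h kidneys, against 17.02, 6.57 and 8.02 FPKM in IRI4h kidneys, a change of 3.47 (standard error 0.55, adjusted p = 2.0e-06). *Tnc*, tenascin C of remodelling matrix, was at 20.3, 26.5 and 17.4 FPKM in IRI24h kidneys, against 5.84, 1.84 and 1.54 FPKM in IRI4h kidneys, a change of 2.99 (standard error 0.50, adjusted p = 4.0e-06), and *Pdgfrb*, the receptor of pericytes and fibroblasts, at 24.2, 32.2 and 29.9 FPKM in IRI24h kidneys, against 7.51, 5.05 and 5.67 FPKM in IRI4h kidneys, a change of 2.23 (standard error 0.32, adjusted p = 2.8e-07). The summed level of the 13 genes was 513 to 666 FPKM in IRI24h kidneys, against 125 to 183 FPKM in IRI4h kidneys. Among matrix proteases *Mmp7* was at 3.396, 3.93 and 7.92 FPKM in IRI24h kidneys, against 0.0661, 0 and 0 FPKM in IRI4h kidneys, a change of 5.35 (standard error 0.62, adjusted p = 6.5e-09), and the IRI4h level lies under the 0.1 FPKM added to each value.

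Of 18 genes of monocytes and macrophages 10 rose and 1 fell. *Chil3*, a chitinase-like protein, was at 5.44, 9.47 and 12.6 FPKM in IRI24h kidneys, against 2.17, 0.127 and 0.0683 FPKM in IRI4h kidneys, a change of 4.31 (standard error 0.87, adjusted p = 7.6e-05), and *F13a1*, a factor XIII subunit of monocytes, changed by 2.703. *Cx3cr1*, the fractalkine receptor, changed by 2.399 and *Csf1r*, the receptor on which tissue macrophages depend, was at 6.54, 7.62 and 6.29 FPKM in IRI24h kidneys, against 18.8, 13.7 and 14.5 FPKM in IRI4h kidneys, a change of -1.18 (standard error 0.22, adjusted p = 2.1e-05). The summed level of the list was 161 to 205 FPKM in IRI24h against 67.6 to 211 FPKM in IRI4h kidneys, so that the sums overlapped. Of 12 neutrophil genes 4 rose and 1 fell, a smaller share higher than the 42.9% of all genes. After quantile normalization 1 rose, and after median centring 2. Without IRI4h replicate 1 there were 6 that rose, and without IRI4h replicate 2 there were 2. None fell without IRI24h replicate 1, IRI24h replicate 2 or IRI4h replicate 1. *S100a8* did not pass (adjusted p = 0.78). None of the 12 neutrophil genes passed between SHAM24h and SHAM4h, with a median of -1.13. By the limma test of the difference, the change after IRI was above that after sham for 5 and below it for none. Relative to SHAM4h, 4 of the 12 already stood higher in IRI4h kidneys, with a median difference of 1.36. Relative to SHAM24h, 11 stood higher in IRI24h kidneys, with a median difference of 3.15, and none was lower in either. None of 9 genes of T, B and natural killer cells passed in limma (3 were lower after median centring and 2 after quantile normalization), 1 was lower at an unadjusted p under 0.05, and all 9 had a mean under 0.5 FPKM in both groups. Of 12 endothelial genes 5 rose and 1 fell (3 rose without IRI4h replicate 2 and 2 fell without IRI4h replicate 3), *Eng*, endoglin, changing by 1.15. The share higher was near the 42.9% of all genes, and 4 rose and 3 fell after quantile normalization, 3 and 3 after median centring. Of 6 genes of endothelial activation none rose, 1 fell and 5 did not pass, with a median of 0.03 (2 fell under either other scaling, and 1 rose without IRI4h replicate 1 or IRI24h replicate 3). The gene that fell was *Sele*, the E-selectin of activated endothelium, at 0.459, 0.2501 and 0.422 FPKM in IRI24h kidneys, against 5.77, 2.16 and 1.72 FPKM in IRI4h kidneys, a change of -2.63 (standard error 0.52, adjusted p = 4.9e-05). The part of these cell types in the changes of immune, matrix and injury genes was not tested.

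All 6 red cell genes were lower at 24 hours. They had a summed level of 11.3 to 38.1 FPKM in IRI24h kidneys, against 154 to 294 FPKM in IRI4h kidneys. In sham kidneys the sum was 38.4 to 48.4 FPKM in SHAM24h, against 59.2 to 102 FPKM in SHAM4h. Of the 6, 1 was higher and none lower in SHAM24h than in SHAM4h. The change after IRI lay below that after sham for 1 and above it for none. In each case this was *Slc4a1*, which is also in the collecting duct list. The globin gene *Hba-a1* changed by -3.34, and *Hba-a1* and *Hba-a2* are near-identical copies whose reads may be shared. Without IRI24h replicate 1 there were 4 that passed, and with IRI24h replicate 2 alone 2.

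Genes of the circadian clock, the feedback loop of transcription that runs in every cell with the time of day, also differed. Of 18 tested, 12 were lower and none higher in IRI24h than in IRI4h. Without IRI4h replicate 1 there was 1 that was higher, and with IRI24h replicate 2 alone 7 were lower. *Nr1d1*, the repressor REV-ERB alpha, was at 16.9, 18.6 and 15.04 FPKM in IRI24h kidneys, against 102, 134 and 119 FPKM in IRI4h kidneys, a change of -2.799 (standard error 0.45, adjusted p = 2.6e-06). In sham kidneys it was at 34.8, 37.4 and 31.3 FPKM in SHAM24h kidneys, against 21.8, 10.8 and 13.6 FPKM in SHAM4h kidneys, a change of 1.22 (standard error 0.45, adjusted p = 0.035), and so in the opposite direction. *Ciart*, another clock repressor, was at 1.69, 3.75 and 1.15 FPKM in IRI24h kidneys, against 12.2, 29.95 and 29.7 FPKM in IRI4h kidneys, a change of -3.44 (standard error 0.62, adjusted p = 1.3e-05), and *Per1* changed by -2.42, *Dbp* by -1.303. *Dbp* rose by 1.33 in sham kidneys and did not pass in injured kidneys without IRI24h replicate 1, IRI24h replicate 3, IRI4h replicate 2 or IRI4h replicate 3. In sham kidneys 4 of the 18 were higher and 2 lower, and the change after IRI was below that after sham for 10 and above it for 1. The hour of the day at collection is not given in the sources used here. So the time of day and the time after surgery cannot be told apart within either surgery. Between the surgeries, an hour that differed cannot be told apart from the injury.

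**Figure D4:**
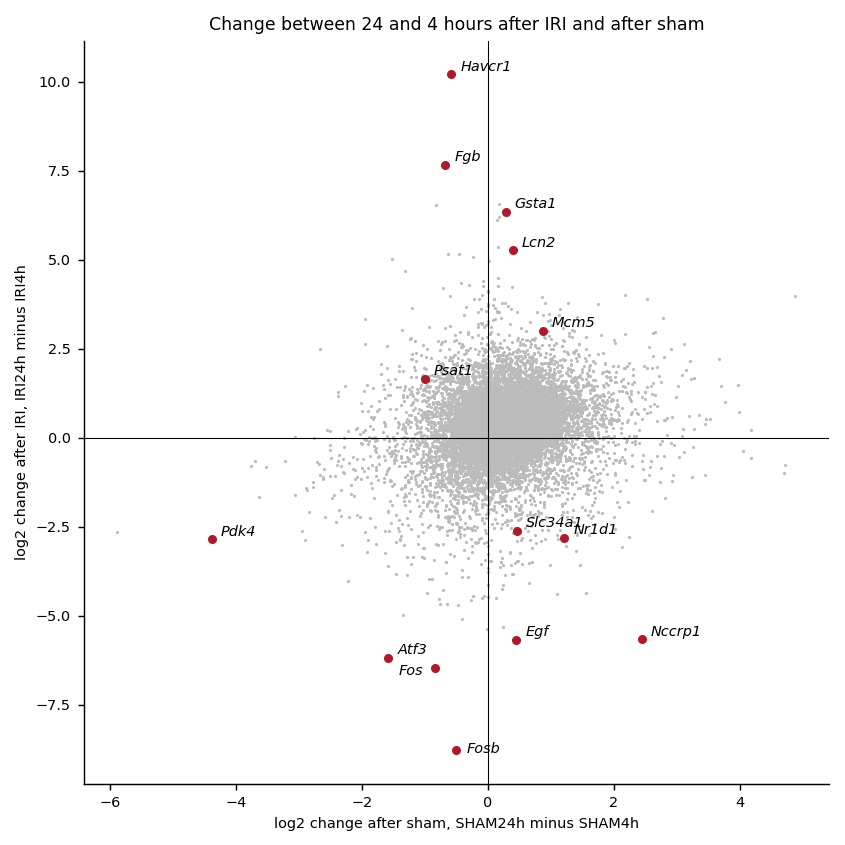
Log2 change between 24 and 4 hours after IRI (vertical axis) against that after sham (horizontal axis) for 14895 genes, 1 point per gene and named genes marked; the axes rest on separate libraries. *Havcr1* and *Fgb* lie high near the sham zero line, *Fosb* low near it, and *Nccrp1* and *Nr1d1* in the lower right, down after IRI and up after sham.

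Some genes moved in opposite directions after IRI and after sham. A total of 635 genes passed in both contrasts with opposite signs and also in the test of the difference, 281 of them higher after IRI and lower after sham and 354 the reverse. *Nccrp1*, an F-box family gene, on chromosome 7 from 28543596 to 28547254, was at 0.451, 0.525 and 0.787 FPKM in IRI24h kidneys, against 50.1, 25.3 and 30.7 FPKM in IRI4h kidneys, a change of -5.66 (standard error 0.58, adjusted p = 3.9e-10). In sham kidneys it was at 58.6, 67.9 and 56.7 FPKM in SHAM24h kidneys, against 11.6, 10.9 and 10.8 FPKM in SHAM4h kidneys, a change of 2.45 (standard error 0.58, adjusted p = 0.001). *Slc4a1*, which encodes band 3 of red cells and, from another promoter, the anion exchanger of acid-secreting intercalated cells, changed by -2.37 after IRI and 1.36 after sham. *Ppp1r1a*, an inhibitor of a protein phosphatase, was at 25.6, 30.2 and 29.7 FPKM in IRI24h kidneys, against 104, 103 and 122 FPKM in IRI4h kidneys, a change of -1.94 (standard error 0.23, adjusted p = 6.4e-09), against 0.89 after sham.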

How the data were processed

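Whole-kidney poly(A) RNA was sequenced from 49 mice in 16 groups, each library 1 biological replicate, and 4 groups of 3 enter here. Per the submitters' processing notes and methods, the authors aligned reads with STAR 2.5.0b to mm10 (GRCm38), removed duplicates and counted on GENCODE genes. The deposited values are FPKM, and the tool that computed them is not given in the sources used here. The libraries do not mark the strand.

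From these, log2(FPKM + 0.1) of genes with at least 1 FPKM in at least 3 libraries was fitted in limma 3.58.1 (R 4.3.3; 16 groups, empirical Bayes with trend and robust), with Benjamini-Hochberg adjustment. Fold changes on this scale understate the change of low genes. Each p-value sets the change against a spread pooled over all 16 groups and moderated across genes, not that of the compared kidneys alone. In a simulation of IRI24h against IRI4h with 14895 genes, 66 of 100 genes changed by 1 (log2) and 95 of 100 changed by 2 were recovered, with 10 false calls. It used independent normal noise, left all other genes unchanged and shifted no library. The data held 8437 calls and a median change of 0.33, so these figures do not give the recovery or false calls there. A low FPKM value is a multiple of what 1 read is worth at the gene's length, and the read totals given are those at which 96.4 to 97.7% of low values were whole within 0.1. Gene positions are from GENCODE (GRCm38).

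Lists of 749 entries were used, of which 718 were tested. Members and lists were chosen with earlier results of these data known. Genes were named by rule: the 12 largest rises and falls among protein-coding genes with a mean of at least 5 FPKM and no overlap, the 4 largest changes of each list, core members of lists, the 4 largest lincRNA changes each way and the 6 largest differences from sham each way; others are marked. A gene the rule named is not reported here. Alternatives were quantile normalization, median centring, other filters, pseudocounts and fold limits, no trend, a fit of the libraries compared, a replicate block, each library left out and IRI24h replicate 2 alone.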

Additional observations from a re-analysis of the deposited data

Results flagged for a closer look

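Of the genes named, 8 passed in both contrasts in opposite directions, and the limma test of the difference between the change after IRI and the change after sham passed for each. The difference (log2) was -8.105 for *Nccrp1*, -4.02 for *Nr1d1*, -3.73 for *Slc4a1*, -2.83 for *Ppp1r1a*, -2.63 for *Dbp*, -1.87 for *Vegfa*, -1.32 for *Umod* and 2.67 for *Psat1*. *Nccrp1* lay at opposite ends in the 2 surgeries: its IRI24h kidneys were the lowest and its SHAM24h kidneys the highest of the 4 groups. *Dbp* is the least certain of these, since its change after IRI did not pass with 1 of 4 libraries left out. For the clock genes *Nr1d1* and *Dbp*, a different hour of collection in the 2 surgeries cannot be told apart from the injury.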

How the results depend on the processing

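The counts depended mainly on how libraries were scaled. For IRI24h against IRI4h, quantile normalization gave 4021 higher and 3205 lower genes and median centring 3404 higher and 3807 lower, with 5921 and 5446 of the 8437 calls kept. For sham these scalings gave 2130 and 2067 higher and 1846 and 2605 lower genes, and a fit of only the libraries compared gave 1738 lower. With IRI24h replicate 2 alone 1295 genes were lower after IRI, and the change after IRI exceeded that after sham for 2163 genes and lay below it for 1392. The count of genes higher by 4-fold or more was 211 with quantile normalization, 219 with median centring and 111 with a pseudocount of 1, and that of genes lower 167 with a pseudocount of 1. A limit of 2-fold gave 2282 higher and 851 lower genes and 1 of 8-fold 86 and 89.

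Without any 1 library, 5596 to 6132 genes were higher and 1787 to 1916 lower after IRI. The replicate block gave 6449 higher and 2077 lower genes and kept 8394 of the calls; since the deviations of same-numbered libraries correlated at -0.0484 to 0.0726, the numbers do not pair the samples.

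Of 131 named genes that passed, 120 passed in the same direction under every alternative, 5 did not pass without at least 1 library (*Krt20*, *Hbb-bs*, *Plin1*, *Dbp* and *Nrg1*), 2 with quantile normalization (*Umod* and *Nrg1*), 1 with median centring or no filter on low values (*Nrg1*), 2 with only the libraries compared (*Hp* and *Plin1*) and 10 with IRI24h replicate 2 alone. With IRI24h replicate 2 alone the changes of *Adipoq* (-0.89) and *Plin1* (-0.26) turned, and so did those of *Hmox1* (-0.26) and *Mt2* (-0.025), which do not pass. With median centring the sign changed for *Chordc1* (-0.080), *Hmox1* (-0.16), *Hnf4a* (-0.24), *Mt2* (-0.25) and *Socs3* (-0.30, and -0.10 with quantile normalization), none of which pass. With 1 library left out in turn, the changes of genes that do not pass ranged from -0.12 to 0.48 for *Hmox1*, from -0.23 to 0.040 for *Hspb8*, from -0.22 to 0.073 for *Lrp2*, from -0.23 to 0.58 for *Mt2*, from -0.092 to 1.295 for *S100a8* and from -0.29 to 0.59 for *Socs3*. The cause of these shifts was not tested.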

Other observations

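Of 252 long intergenic noncoding RNAs (lincRNAs) tested, 63 (25%) were higher and 57 (22.6%) lower in IRI24h than in IRI4h, against 5898 (44.7%) and 1841 (13.9%) of 13209 protein-coding genes. The shares were not tested against each other. *D630024D03Rik* was at 2.25, 2.02 and 2.09 FPKM in IRI24h kidneys, against 29.3, 21.5 and 28.1 FPKM in IRI4h kidneys, a change of -3.56 (standard error 0.29, adjusted p = 2.5e-12). *Gm4208* was at 0.420, 0.263 and 0.242 FPKM in IRI24h kidneys, against 6.51, 7.95 and 11.1 FPKM in IRI4h kidneys, a change of -4.39 (standard error 0.56, adjusted p = 3.5e-08), and *Gm29012* changed by -4.13. In sham kidneys *D630024D03Rik* changed by 0.36, and the change after IRI lay below it, with a difference of -3.92 (standard error 0.41, adjusted p = 3.7e-09). Among those that rose, *A330009N23Rik* was at 1.04, 1.4004 and 1.47 FPKM in IRI24h kidneys, against 0.185, 0.122 and 0.225 FPKM in IRI4h kidneys, a change of 2.34 (standard error 0.26, adjusted p = 3.3e-09). *Gm12121*, at 19.5, 25.3 and 21.5 FPKM in IRI24h kidneys, against 4.13, 5.99 and 7.65 FPKM in IRI4h kidneys, was also higher in sham kidneys, with 24.5, 29.3 and 21.4 FPKM in SHAM24h kidneys, against 3.72, 2.37 and 2.24 FPKM in SHAM4h kidneys. The groups did not overlap for any of these genes, and since the libraries do not mark the strand, reads of a gene on the other strand cannot be told apart from theirs.

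Enzymes of cholesterol synthesis and of glycolysis had counts that turned with the scaling. Of 18 cholesterol genes 6 rose and 4 fell as deposited, but 1 rose and 8 fell after median centring, and of 12 glycolysis genes 4 rose and 1 fell as deposited, but none rose and 3 fell after median centring. No direction is given for either list.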
